A study of Macaca mulatta with 8 samples.

Results

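Chemokine and formyl peptide receptors were followed here through 9 genes, CCR1, CCR2, CCR7, CXCR4, CCRL2, CMKLR1, FPR1, FPR2 and FPR3, read from the 35432 gene rows of 8 RNA-sequencing libraries. They were taken by gene symbol and without a threshold on their values, and all 9 were among the 12131 genes with enough reads to be tested. The libraries come from primary microglia of 4 adult rhesus macaques (Macaca mulatta), animals R07110, R12016, R02046 and R14143, isolated from frontal subcortical white matter. All cultures received uLPS, an ultrapure lipopolysaccharide that activates TLR4, at 10 µg/mL for 16 h from day 7 of an 8-day culture with the growth factor M-CSF. From each animal, 1 culture received uLPS alone and 1 was first incubated for 1 h with 5 µM MRS2578, an antagonist of P2RY6, the receptor for the nucleotide UDP. The question was which transcripts of uLPS-exposed microglia change when P2RY6 is antagonized. Every library was exposed to uLPS, so the response of these receptors to uLPS itself is not analysed here. MRS2578 is dissolved in DMSO, and according to the methods of the study DMSO controls accompanied every assay with it, although the sample labels name no vehicle.

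These receptors cross the cell membrane repeatedly and most of them signal through inhibitory G proteins. Chemokine receptors guide leukocytes along gradients of small secreted proteins, and formyl peptide receptors recognise N-formylated peptides from bacteria and mitochondria together with many host peptides. Microglia and other macrophages use both families to find sites of infection and injury, and LPS is known to alter the transcripts of several members.

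The conditions of animal R02046 are in doubt. The study's own list of per-library expression values matched the deposited counts in all 8 columns, but only 6 columns carried the same condition as the sample labels, and the 2 columns of R02046 carried the opposite one. The receptors and the gene lists around them are therefore given in 3 views: as labelled, after an exchange of the R02046 libraries between conditions, and without R02046. Library totals ran from 9231109 reads (R02046, uLPS) to 32790348 reads (R07110, uLPS). CSF1R, a receptor that marks microglia and macrophages, was abundant in every library at 1006 to 1470 CPM, which here are read counts scaled to library size by the TMM method. Of the genes of resident microglia, P2RY12 was at 5.70 to 13.3 CPM, while TMEM119 and CX3CR1 were near 0, with at most 5 and 35 reads in any library. In bulk RNA, fewer cells that carry a transcript and less of that transcript per cell cannot be told apart.

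Several of these genes are close relatives, which matters for reads assigned to 1 gene. In the NCBI annotation of Mmul_10 the formyl peptide receptor genes lie together on chromosome 19, with 4998 bp between FPR1 and FPR2. Their coding sequences were 74.43% identical between FPR1 and FPR2, 69.57% between FPR1 and FPR3 and 79.79% between FPR2 and FPR3. A stretch of 90 coding bases where FPR1 and FPR2 are most alike is shown for all 3 genes, to let the differences be seen. FPR1 comes from chr19:51495012-51495101 on the minus strand, FPR2 from chr19:51514329-51514418 on the plus strand and FPR3 from chr19:51565918-51566007 on the plus strand. All are read 5′ to 3′ from coding base 103 to 192, and capitals mark bases that differ from FPR1.
FPR1: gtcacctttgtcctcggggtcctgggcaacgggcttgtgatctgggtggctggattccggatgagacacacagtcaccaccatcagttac
FPR2: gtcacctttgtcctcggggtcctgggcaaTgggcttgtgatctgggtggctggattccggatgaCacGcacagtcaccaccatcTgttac
FPR3: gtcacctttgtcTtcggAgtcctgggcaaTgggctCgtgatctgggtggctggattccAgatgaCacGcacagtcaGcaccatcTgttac

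Within these 90 bases FPR2 differed from FPR1 at 4 positions and FPR3 at 9. Over the whole coding sequence the longest run that any 2 of them share was 36 bases, between FPR2 and FPR3. The study counted uniquely mapped reads only, so reads from such stretches could be dropped. The effect on the counts was not tested. The whole genes of that cluster lie at 51493983 to 51500246 (FPR1), 51505245 to 51516083 (FPR2) and 51559338 to 51568306 (FPR3), and CCR2 lies at 102375497 to 102376579 on chromosome 2. The other members lie at 102205536 to 102212086 on chromosome 2 (CCR1), at 102411339 to 102424016 on chromosome 2 (CCRL2), at 51706765 to 51717446 on chromosome 16 (CCR7), at 21291083 to 21294316 on chromosome 12 (CXCR4) and at 107897507 to 107968946 on chromosome 11 (CMKLR1). FPR1, FPR2, FPR3, CCR1 and CCR2 hold their coding sequence in 1 exon, CXCR4 and CMKLR1 in 2, and CCR7 and CCRL2 in 3. In the NCBI annotation CXCR4 shares 1097 bp with another gene model on the same strand. CMKLR1 overlaps a non-coding gene on the opposite strand by 462 bp. The count rows carry Ensembl gene identifiers, and whether these overlaps affected their reads was not tested. For CCR2, CCR7 and CXCR4 the annotation holds hardly more than the coding sequence, so levels were compared between libraries for each gene and not between genes.

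**Figure D1:**
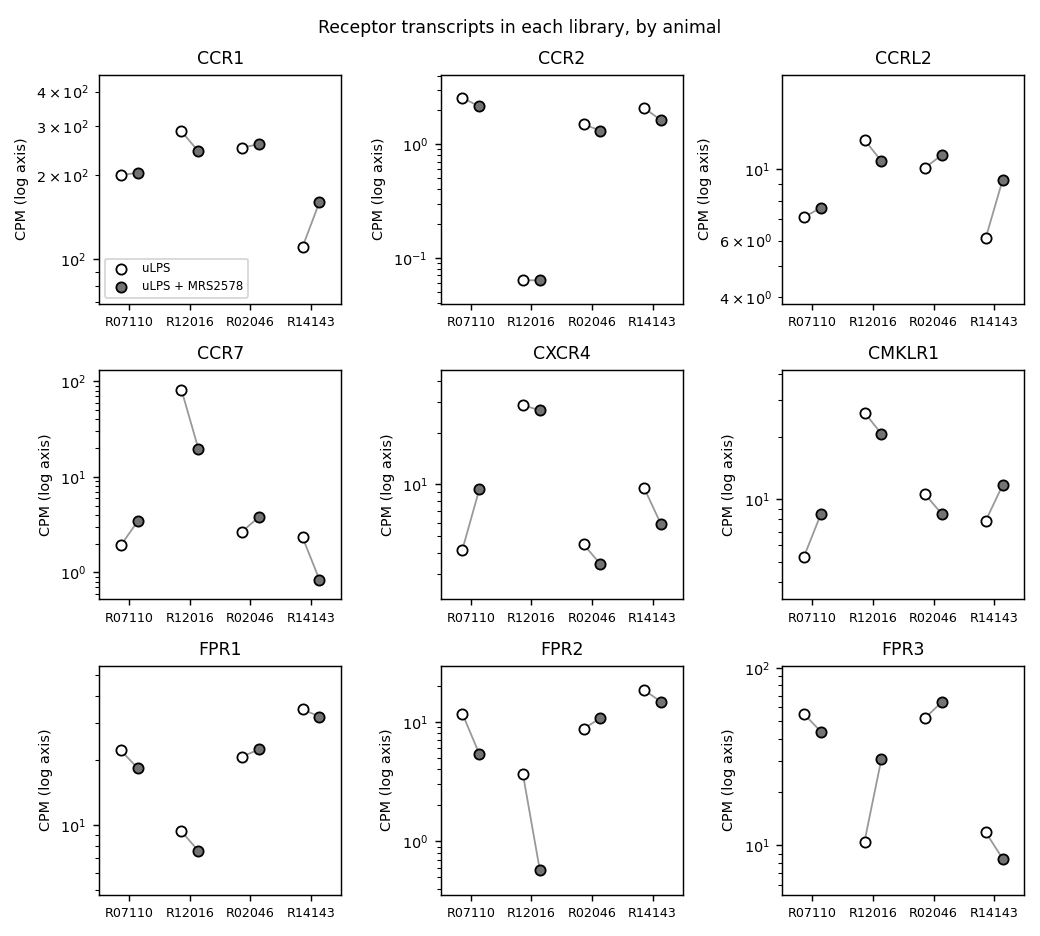
CPM (log axis, 1 scale per gene) of the 9 receptor transcripts in each animal, with white points for uLPS, grey points for uLPS with MRS2578 and a line joining the 2 libraries of an animal under the deposited labels. R12016 stands highest for CCR7, CXCR4 and CMKLR1 and lowest for CCR2 and FPR1, and FPR2 falls from 3.64 to 0.569 CPM in that animal.

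With the deposited labels, MRS2578 changed none of the 9 receptor transcripts past the threshold of adjusted p 0.05 (edgeR quasi-likelihood test with the animal as a block). The same test called 0 of 12131 genes, 0%, so the members cannot be set apart from the rest by it. At an unadjusted p under 0.05 it counted 0 members and 624 genes, 5.14%, and the smallest adjusted p of any gene was 0.878. DESeq2 called 1 gene and the likelihood ratio test of edgeR 5 genes, none of them a member. Each of these tests gave 1 member an unadjusted p under 0.05, beside 594 and 649 of the 12131 genes. The lowest fitted value of a member was that of FPR2 in both, at -0.84. With the R02046 libraries exchanged, 75 genes were called, 0.618%, 12 higher (0.0989%) and 63 lower (0.519%), and again 0 of the 9 members. DESeq2 called 583 genes in that view, also without a member. Without R02046, 0 of 12295 genes passed, 0%, while 1670 genes, 13.6%, had an unadjusted p under 0.05. The median log2 fold change of the 9 members was 0.02 with the deposited labels, beside -0.0097 over all genes tested. FPR2 and CCR7 had the lowest fitted values, and both are described with their relatives below.

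CCR1 binds the inflammatory chemokines CCL3, CCL5 and CCL7 among others and draws monocytes and macrophages to inflamed tissue. Its level with uLPS alone was 199.8 CPM (R07110), 288 (R12016), 252 (R02046) and 110.3 (R14143). With MRS2578 it was 204, 244, 258 and 160.1 CPM in the same order. The conditions overlapped, and the largest step within an animal was the rise of 0.54 on the log2 scale in R14143, whose uLPS library was the lowest of the 8. The mean was 212 ± 77.1 CPM with uLPS and 217 ± 44.2 CPM with MRS2578 (SD, n = 4 animals). In the fit CCR1 stood at 0.09 ± 0.14 on the log2 scale (SE, adjusted p = 0.939), at 0.07 after the exchange of R02046 and at 0.11 without R02046. Without R14143 the value turned to -0.060.

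CCR2 is the receptor through which CCL2 recruits blood monocytes, and it was scarce in these cultures. With uLPS alone it stood at 2.56 CPM (R07110, 84 reads), 0.0638 (R12016, 1 read), 1.49 (R02046, 14 reads) and 2.08 (R14143, 41 reads). With MRS2578 the values were 2.14 (53 reads), 0.0632 (1 read), 1.32 (18 reads) and 1.62 CPM (29 reads). R12016 was thus far below the other animals in both conditions, and its single reads lie under the 3 reads taken as the floor. The exact 95% Poisson interval of its uLPS library, 0.0016 to 0.355 CPM, ended below the lowest interval of the other 3 animals in that condition, which began at 0.816. Under MRS2578 the interval of R12016 ended at 0.352 CPM and the lowest of the others began at 0.780. These intervals cover counting error only. The MRS2578 values were lower in all 4 animals, but in R12016 this compares 1 read with 1 read and it no longer held when CPM were taken from total counts. In the fit the log2 fold change was -0.27 ± 0.26 (SE, adjusted p = 0.906), against -0.21 after the exchange and -0.29 without R02046.

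CCR7 is the homing receptor for CCL19 and CCL21 that takes mature dendritic cells and lymphocytes to lymph nodes. With uLPS it was at 1.92 CPM (R07110), 82.0 (R12016), 2.67 (R02046) and 2.34 (R14143). With MRS2578 it was at 3.43, 19.8, 3.80 and 0.838 CPM. R12016 was the highest in both conditions, and its lower value with MRS2578 still exceeded every library of the other 3 animals. CCR7 was lower with MRS2578 in R12016 (1285 against 313 reads, log2 difference -2.04) and in R14143 (-1.37), and higher in R07110 (0.81) and R02046 (0.49). The mean of 22.2 ± 39.8 CPM with uLPS and of 6.96 ± 8.65 CPM with MRS2578 (SD, n = 4) is set mainly by that 1 animal. CCR7 had a fitted log2 fold change of -0.63 ± 0.53 (SE, adjusted p = 0.901), of -0.96 ± 0.46 (adjusted p = 0.349) once R02046 was exchanged and of -1.02 without R02046, and without R12016 it turned to 0.16.

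In R12016 the dendritic cell gene LAMP3 was also high with uLPS and lower with MRS2578, at 4.08 and 0.316 CPM, against at most 1.12 CPM in any library of the other animals. The whole list of 8 dendritic cell markers summed to 18.2 and 14.5 CPM in the 2 libraries of R12016, within the range of 7.78 to 18.8 CPM with uLPS and 8.33 to 15.4 CPM with MRS2578 over all animals. Of that list, 3 genes passed the filter on low counts, and the defining genes FLT3 and XCR1 had no read in any library. The part of such cells in the CCR7 values was not tested.

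CXCR4 is the receptor for CXCL12 and also binds the cytokine MIF. Its level with uLPS was 4.17 CPM (R07110), 29.0 (R12016), 4.48 (R02046) and 9.55 (R14143), and with MRS2578 it was 9.38, 27.0, 3.43 and 5.87 CPM. R12016 was again the highest animal in both conditions, with no overlap with the other 3. Its fitted log2 fold change was 0.02 ± 0.31 (SE, adjusted p = 0.995), 0.16 after the exchange and 0.12 without R02046. R07110 was the only animal with more CXCR4 under MRS2578 (log2 difference 1.15), and without it the fitted value was -0.39.

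CMKLR1 is the signaling receptor for chemerin, the protein made by RARRES2, and CCRL2 is an atypical receptor that holds chemerin at the cell surface without signaling. CMKLR1 measured 5.30 CPM (R07110), 26.1 (R12016), 10.6 (R02046) and 7.87 (R14143) with uLPS. The values with MRS2578 were 8.49, 20.6, 8.48 and 11.7 CPM. As for CXCR4, both libraries of R12016 were above all others, while the 2 conditions overlapped. The fitted log2 fold change of CMKLR1 was 0.15 ± 0.22 (SE, adjusted p = 0.939), 0.28 after the exchange and 0.28 without R02046, and it was -0.034 without R07110.

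CCRL2 was the steadiest of the 9 genes between animals. It measured 7.09 CPM (R07110), 12.4 (R12016), 10.1 (R02046) and 6.09 (R14143) with uLPS, and 7.60, 10.6, 11.1 and 9.28 CPM with MRS2578. The conditions overlapped, and the lowest value was again the uLPS library of R14143. The fitted change was 0.15 ± 0.18 on the log2 scale (SE, adjusted p = 0.927), 0.085 after the exchange and 0.15 without R02046, and without R14143 it was -0.0017.

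FPR1 is the high-affinity receptor for formylated bacterial peptides. It stood at 22.3 CPM (R07110), 9.38 (R12016), 20.8 (R02046) and 34.5 (R14143) with uLPS, and at 18.4, 7.58, 22.5 and 32.02 CPM with MRS2578. The order of the animals was nearly kept between the conditions, with R14143 highest and R12016 lowest. The largest step within an animal was a log2 difference of -0.30 in R12016, and the 3 animals other than R02046 were all lower with MRS2578. The fit placed FPR1 at -0.14 ± 0.12 on the log2 scale (SE, adjusted p = 0.902), it was -0.20 ± 0.11 (adjusted p = 0.426) after the exchange, and -0.23 ± 0.13 (adjusted p = 0.500) without R02046.

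FPR2 is the most promiscuous of the 3 receptors, and its ligands include serum amyloid A, the annexin A1 protein and the peptide LL-37 from CAMP. With uLPS it was at 11.7 CPM (R07110, 385 reads), 3.64 (R12016, 57 reads), 8.74 (R02046, 82 reads) and 18.5 (R14143, 364 reads). With MRS2578 it was at 5.37 (133 reads), 0.569 (9 reads), 10.7 (147 reads) and 14.7 CPM (263 reads). The value was lower with MRS2578 in R12016, R07110 and R14143, with log2 differences of -2.47, -1.11 and -0.33, and higher in R02046 by 0.29. The ranges of the conditions overlapped, and R14143 was highest and R12016 lowest in both.

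With the deposited labels the fitted log2 fold change of FPR2 was -0.72 ± 0.38 (SE, adjusted p = 0.878). After the exchange of R02046, FPR2 was lower in all 4 animals, at -0.80 ± 0.28 (adjusted p = 0.221). Without R02046 it was -1.003 ± 0.35 (adjusted p = 0.314). FPR2 was the only member with an unadjusted p under 0.05 in either of the last views, 0.0226 and 0.0293 by edgeR, where 16.4% and 13.6% of all genes had one. The size rests partly on R12016, without which the deposited labels gave -0.41.

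FPR3 binds a peptide cut from the heme-binding protein HEBP1 and responds little to formylated peptides. It was at 55.1 CPM (R07110), 10.5 (R12016), 52.3 (R02046) and 11.9 (R14143) with uLPS, and at 43.8, 30.8, 64.5 and 8.44 CPM with MRS2578. With uLPS the animals lay apart, R07110 and R02046 well above R12016 and R14143, and R12016 moved up with MRS2578 by 1.54 on the log2 scale. The fitted log2 fold change was 0.24 ± 0.32 (SE, adjusted p = 0.934), 0.069 after the exchange and 0.21 without R02046, and without R12016 it turned to -0.15.

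**Figure D2:**
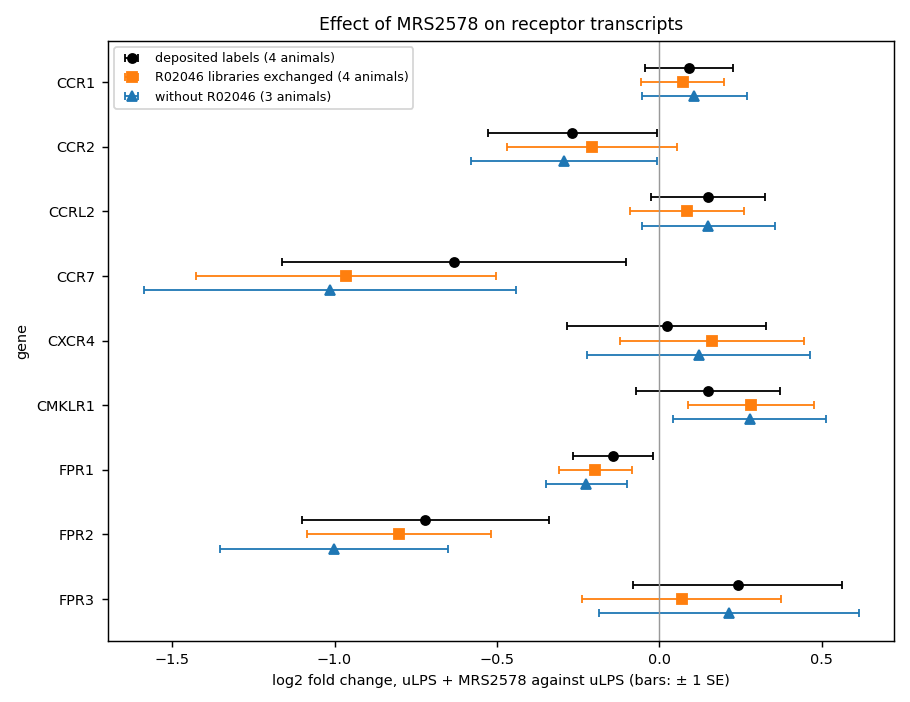
Fitted log2 fold change of each receptor with MRS2578 against uLPS alone, with bars of 1 SE, under the deposited labels (circles, 4 animals), with the R02046 libraries exchanged (squares, 4 animals) and without R02046 (triangles, 3 animals). FPR2 lies between -0.72 and -1.003 and CCR7 between -0.63 and -1.02, while the other genes stay closer to 0 and none of the 9 passes the test.

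The composition of the formyl peptide receptor reads differed between animals and, in R12016 and R07110, between conditions. FPR2 made up 15.4% of the FPR1, FPR2 and FPR3 reads of R12016 with uLPS (95% Wilson interval 12.1 to 19.5) and 1.46% with MRS2578 (0.769 to 2.75). FPR3 went from 44.7% (39.7 to 49.8) to 79.1% (75.7 to 82.1) in the same animal. These intervals cover counting error within a library and do not stand for the spread between animals. A share of reads also depends on transcript length, so shares are compared between libraries and not between the genes.

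In R07110 the FPR2 share was 13.2% (95% Wilson interval 11.98 to 14.4) with uLPS and 7.95% (6.75 to 9.34) with MRS2578. In R02046 it was 10.7% (8.70 to 13.1) and 10.99% (9.42 to 12.8), and in R14143 28.5% (26.1 to 31.0) and 26.6% (24.0 to 29.5), with overlapping intervals in both animals. The FPR1 share was highest in R14143, at 53.2% with uLPS and 58.1% with MRS2578, against 19.4% to 39.8% in the libraries of the other animals. The FPR3 share was lowest there, at 18.3% and 15.3%.

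**Figure D3:**
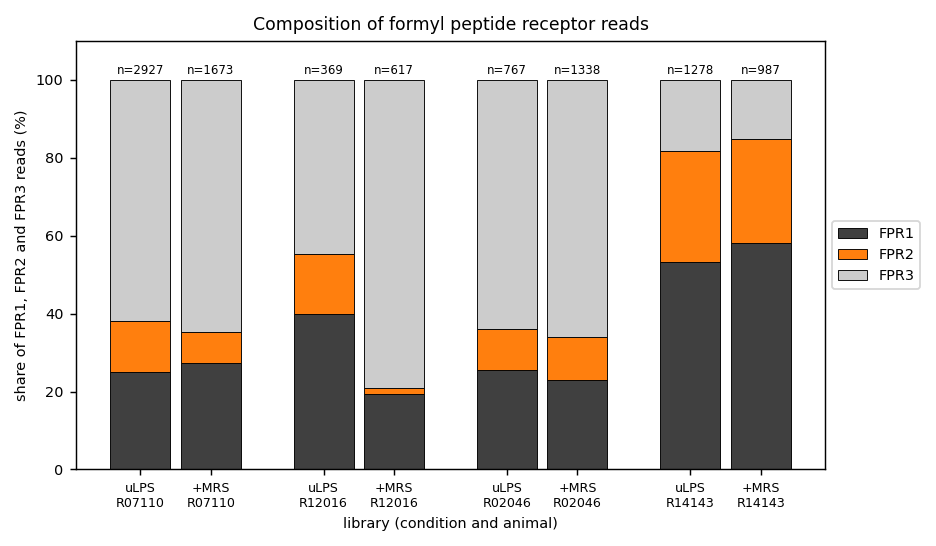
Share in percent of FPR1, FPR2 and FPR3 reads in each of the 8 libraries under the deposited labels, with n as the number of reads of the 3 genes together. FPR2 shrinks from 15.4% to 1.46% in R12016, and the FPR1 share is highest in the 2 libraries of R14143.

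The 9 receptors differed more between animals than between the conditions of an animal. The animals also differ in age and sex in the paper's list. The design cannot tell these apart from the cell isolation, culture or mix of cells of each animal. For all 9 receptors the span of the animal means exceeded every difference within an animal, as it did for 58.2% of all genes tested. The span reached at least 2 on the log2 scale for 5 of the 9, CCR2, CCR7, CXCR4, FPR2 and FPR3, where 6.55% of all genes reached it. The median gene spanned 0.56 between animals. CCR7 covered 4.73, with its highest mean in R12016 and its lowest in R14143, FPR2 3.38, CXCR4 2.80 and FPR3 2.52. The span of CCR2 rests on the single reads of R12016 and depends on the prior count.

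A test of the animal terms in the same edgeR fit, added after the data were seen, called 6 of the 9 receptors, beside 892 of 12131 genes, 7.35%. The adjusted p was 0.0093 for CCR2 and FPR1, 0.018 for CCR7, 0.029 for CXCR4, 0.044 for CMKLR1 and 0.049 for FPR3. It was 0.062 for CCR1, 0.065 for FPR2 and 0.21 for CCRL2. With the R02046 libraries exchanged 8 of 9 passed, CCRL2 being the exception, but 18.9% of all genes did so too.

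Most of these calls depended on R12016. Without it only FPR3 was called, beside 2.73% of genes, against 4 receptors without R07110 (3.48%), 6 without R02046 (7.39%) and 3 without R14143 (3.36%). R12016 had the highest mean for CCR1, CCR7, CXCR4, CCRL2 and CMKLR1, 5 of 9, where it was the highest animal for 28.2% of all genes. It had the lowest mean for CCR2, FPR1 and FPR2, 3 of 9, where it was the lowest for 29.9% of all genes.

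**Figure D4:**
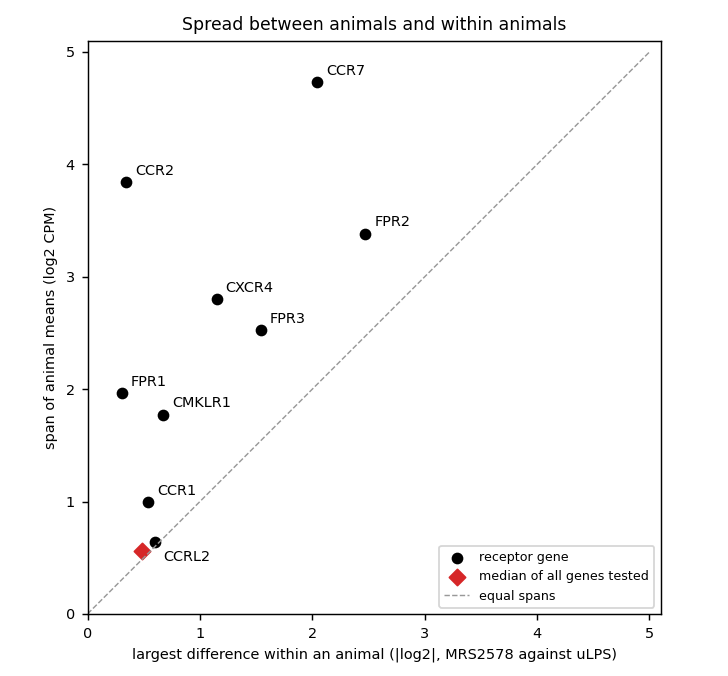
Span of the 4 animal means (log2 CPM) against the largest absolute log2 difference between the 2 libraries of an animal, for the 9 receptors (black) and the median of all genes tested (red diamond at 0.49 and 0.56). All 9 receptors lie above the dashed line of equal spans, CCR7 farthest up at 4.73 and CCRL2 closest to the median gene.

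The direction within animals was rarely shared. With the deposited labels CCR2 alone was lower with MRS2578 in all 4 animals, where 6.52% of all genes were, and no receptor was higher in all 4, where 6.43% were. In R12016 the CCR2 step compares 1 read with 1 read, here and wherever CCR2 is counted below. From total counts without TMM no receptor kept the same direction in all 4. With the R02046 libraries exchanged FPR1 and FPR2 were lower in all 4, against 13.2% of genes, and none was higher, against 10.6%. In R07110, R12016 and R14143 alone, CCR2, FPR1 and FPR2 were lower in each animal, against 19.8% of genes, and none was higher, against 17%.

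Ligands of these receptors were read from a list of 20 genes, of which 17 were in the files and 13 were tested. CCL2, which acts on CCR2, was at 1445 to 2779.7 CPM and CCL3, which acts on CCR1, at 1441 to 2938 CPM over the 8 libraries. The chemokine partners of CCR7 and CXCR4 had few reads. CCL19 was at 0.0508 to 4.21 CPM, CCL21 at no more than 0.030 CPM and CXCL12 at 0.283 to 1.39 CPM. MIF, which also binds CXCR4, was at 87.9 to 146.8 CPM. None of the 13 ligands passed the test with any of the 3 assignments of R02046, with 9 fitted lower and 4 higher under the deposited labels. Their median log2 fold change was -0.17, -0.089 after the exchange and -0.097 without R02046, beside -0.0097, 0.0012 and -0.0035 over all genes. At an unadjusted p under 0.05 there was 1 ligand as labelled, 2 after the exchange and 4 without R02046, all lower. Of all genes, 5.14%, 16.4% and 13.6% had one. CCL5 came closest to the threshold in the edgeR fit, at -0.71 ± 0.12 (SE, adjusted p = 0.0526) after the exchange. It was at -0.51 (adjusted p = 0.878) as labelled and at -0.81 (adjusted p = 0.141) without R02046. The paper, also with edgeR, reports CCL5 as significantly decreased, among other genes past its threshold, and does not state the terms of its model. The reason for this difference was not tested.

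Other chemoattractant receptors gave 9 tested genes of 25 in the files, with a median log2 fold change of 0.08 as labelled, 0.039 after the exchange and 0.090 without R02046. An unadjusted p under 0.05 was found for 2 higher and 0 lower as labelled and for 0 higher and 3 lower after the exchange. Without R02046 it was found for 1 higher and 2 lower. Over all genes tested, 5.14%, 16.4% and 13.6% had one in these views. In each view 4 of the 9 genes were fitted lower and 5 higher. None was called as labelled or without R02046. After the exchange CXCR5, a receptor for CXCL13 that guides B cells, was called lower at -1.35 ± 0.21 (SE, adjusted p = 0.046), and without R02046 it was at -1.16 (adjusted p = 0.16). This call was lost when the animal was left out of the model as a block. With the deposited labels its value was -0.35 ± 0.55 (SE, adjusted p = 0.942). The 14 genes of G protein, phosphoinositide and Rac signaling were all tested and had a median of -0.045 as labelled, -0.13 after the exchange and -0.14 without R02046. Their genes at an unadjusted p under 0.05 numbered 0, then 1 higher and 2 lower, then 1 higher and 1 lower in these views. The 11 kinases, arrestins and RGS proteins that switch these receptors off had a median of -0.13, -0.011 and -0.075, and without R12016 the labelled value was -0.0040. Here 1, 3 and 2 genes had an unadjusted p under 0.05, all lower. For both groups the shares over all genes tested were the same 5.14%, 16.4% and 13.6%. Neither group had a call in any of the 3 views.

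Genes whose levels followed a receptor most closely over the 8 libraries were found by the root mean square difference of centred log2 CPM, among the genes with a mean of at least 10 CPM. CCRL2 was nearest to GLCE (0.13) and FARP2 (0.15), CCR1 to PLBD1 (0.15) and PLCL2 (0.17), and FPR1 to PDLIM2 (0.22) and the row listed as mml-mir-147b (0.23). CMKLR1 was nearest to APOL4 (0.28) and ADA2 (0.32), and CXCR4 to THBS2 (0.29) and RGS2 (0.41). The remaining differences were larger. CCR2 was next to RAI14 (0.47) and FXYD6 (0.47), and FPR3 to DNASE2B (0.47) and PLEK2 (0.52). FPR2 was next to IL1A (0.62) and CISH (0.63), and CCR7 to PLAAT3 (0.68) and CXCL11 (0.75). The measure grows with a receptor's own spread, with an SD of 0.33 log2 units for CCRL2 and 1.93 for CCR7. It does not rank closeness between receptors. Each likeness is a description over the same 8 libraries of 4 animals.

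Markers of other cells also differed between animals. The T and NK cell list summed to 5.74 to 50.6 CPM over the libraries, mostly through CD8A, with CD3G, TRAT1, NKG7 and KLRB1 at 0 in all 8 libraries. The neutrophil list, which includes the chemokine receptor CXCR2, summed to 2.30 to 9.87 CPM with ELANE, CEACAM8 and MMP8 at 0. The endothelial, mural and fibroblast list was highest in R14143 with uLPS, at 1179.5 CPM against 543 with MRS2578. In that uLPS library CCR1 and CCRL2 were at their lowest, while FPR1 (34.5 CPM) and FPR2 (18.5 CPM) were at their highest. R14143 is also the animal without which the fitted direction of CCR1 and CCRL2 turned. The monocyte list, with S100A12 at 0, summed to 375 to 681 CPM and was highest in R14143, the animal with most FPR1. Their part in the receptor values was not tested.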

How the data were processed

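The authors deposited whole-number read counts per gene for each library (poly(A) RNA, directional kit). Per the paper's methods, uniquely mapped reads within exons of Mmul_10 were counted with HTSeq after STAR alignment. The submitters' processing notes name Trimmomatic 0.30, TopHat2 2.0.14, SAMtools 1.3 and HTSeq 0.6.1p1 instead, and the strand setting is not given in the sources used here. Labels and methods also differ in the M-CSF concentration (10 ng/mL in the labels).

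Counts were analysed in R 4.3.3 with edgeR 4.0.16: TMM scaling, a filter at a minimum count of 10, a quasi-likelihood F-test with the animal as a block and Benjamini-Hochberg adjustment over all genes tested. Log2 CPM used a prior count of 2. DESeq2 1.42.0 was an alternative. Scripts were tested on simulated data. Pairing comes from the animals: deviations of the 2 libraries of an animal correlated at 0.458 to 0.602. No 2 libraries were duplicates (smallest chi-square per degree of freedom 19.6). Depth is 9231109 to 32790348 counts per library, and 3 counts were taken as the floor.

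Named genes were all 9 members, list genes called at 0.05 as labelled or after the exchange of R02046 (up to 5 a list), and the 2 genes most like each member. LAMP3, CSF1R, TMEM119, CX3CR1 and the named ligands and markers fall outside this rule and were chosen after their values were seen. Members and lists were chosen with earlier results of these data known. Over all 8 libraries, summed marker levels were 3984 to 5838 CPM for microglia and macrophages, 0.107 to 1.20 CPM for B and plasma cells, 223 to 407 CPM for oligodendrocytes and 88.6 to 205 CPM for astrocytes. Coding sequences and positions were read from the NCBI annotation and genome of Mmul_10 with Biopython 1.88. The study's list of per-library values served only to compare column labels.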

Additional observations from a re-analysis of the deposited data

Results flagged for a closer look

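Among 27 sets of values, 1 animal stood far from the others in 2, both for CCR7. In the uLPS libraries R12016 had 82.0 CPM and the next animal 2.67, a gap of 0.991 of the whole range of the 4 animals. In the libraries with MRS2578 R12016 had 19.8 CPM and the next animal 3.80, a gap of 0.844 of the range. Both exceed the 95% limit of Dixon's test for 4 values, which chance passes in about 1 in 20 sets of normally distributed values. The test used CPM without a log. On log2 CPM R12016 was at 6.36 with uLPS and the next animal at 1.47. With MRS2578 it was at 4.31, beside 1.97 (R02046), 1.82 (R07110) and -0.08 (R14143), a smaller part of the range than without a log. Both sets are CCR7 in R12016, so they are not independent, and 2 of 27 is little above 1 in 20.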

How the results depend on the processing

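No receptor passed the test under any of the settings tried. The replicate block pairs the libraries of an animal. With no replicate block the fitted log2 fold change was -0.046 for CXCR4 and -0.0043 for CMKLR1, against 0.02 and 0.15, with the R02046 libraries exchanged and no replicate block it was -0.079 for FPR3. CCR7 moved furthest without the block, to -1.69 as labelled and -1.72 after the exchange, and FPR2 was at -0.46 and -0.62. The block changed no call as labelled, but after the exchange the 75 genes called, CXCR5 among them, became 0 without it. The DESeq2 Wald test gave -0.0014 for CXCR4. Leaving out 1 animal gave, as labelled, -0.060 to 0.21 for CCR1, -1.15 to 0.16 for CCR7, -0.39 to 0.26 for CXCR4, -0.0017 to 0.28 for CCRL2, -0.034 to 0.35 for CMKLR1 and -0.15 to 0.48 for FPR3, and after the exchange -0.084 to 0.18 for CCR1, -1.57 to -0.092 for CCR7, -0.20 to 0.45 for CXCR4, -0.082 to 0.20 for CCRL2, 0.15 to 0.54 for CMKLR1 and -0.36 to 0.23 for FPR3. FPR2 stayed lower, at -0.41 to -1.03, FPR1 at -0.093 to -0.23 and CCR2 at -0.13 to -0.29. The cause of these shifts was not tested.

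Genes called numbered 0 with the deposited labels, 1 by the DESeq2 Wald test and 5 by edgeR's likelihood ratio test. With the R02046 libraries exchanged they numbered 75, 583 by DESeq2 and 39 by edgeR's earlier quasi-likelihood estimation, which was added after the data were seen. Leaving out 1 animal gave 0 to 918 genes, with 918 in the exchanged fit without R14143 and 5 in that without R12016. In those fits 0 to 2 ligands, 0 to 3 other receptors, 0 to 2 signaling genes and 0 to 2 desensitization genes were called. The exchange itself gave 1 other receptor, and DESeq2 on the exchanged libraries 1 ligand, 2 other receptors and 2 signaling genes. Receptors lower in all 4 animals numbered 1, 2 after the exchange and 0 from total counts without TMM. The test between animals called 6 receptors and 892 genes, 2288 genes after the exchange, and with 1 animal left out 1 to 6 receptors and 333 to 909 genes. CCR2 rests on 1 to 84 reads per library, so small differences were not detectable at this depth.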
